A study of Mus musculus with 17 samples.

Results

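The 10 genes described here are *Trp53*, which encodes p53, and 9 genes that p53 is known to switch on: *Cdkn1a*, *Mdm2*, *Bbc3*, *Pmaip1*, *Trp53inp1*, *Ccng1*, *Phlda3*, *Gadd45a* and *Btg2*. They were taken by name, by a rule that uses no measured value but was drawn up with earlier results of these data known, and all 10 are among the 23282 genes of the deposited table. They were followed as a readout of checkpoint activation in germ cells that enter meiosis without NAT10, the enzyme that writes N4-acetylcytidine on RNA. FACS of WT and *Nat10*-SKO testes gave 3 germ cell populations: spermatogonia (SPG), spermatocytes in pre-leptotene (PreL), and spermatocytes in leptotene or zygotene (LZ). The 17 libraries were 3 WT and 3 SKO in SPG, 3 WT and 3 SKO in PreL, and 2 WT and 3 SKO in LZ.

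All mice were C57BL/6 by the labels, C57BL/6J by the study's methods. The SKO mice carried 1 floxed and 1 null *Nat10* allele (*Nat10* fl/-) and a Cre knocked in at *Stra8*. This Cre is active in germ cells before they enter meiosis, so that somatic cells of the testis keep the floxed *Nat10* allele beside the null allele. The labels name the other genotype WT and give neither the age of the mice nor the animal behind a library. The study calls the libraries of a group biological replicates, without saying which animals or pools they came from, so that the p-values below measure the spread between these libraries. *Nat10* read numbers were 248 to 485 in WT and 45 to 269 in SKO, and within each stage every SKO library lay below every WT library. These read numbers are not set against library depth, which was lowest in SKO LZ.

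p53 is a transcription factor that is held low by MDM2 and accumulates after DNA damage or ribosomal stress. It then raises genes that stop the cell cycle (*Cdkn1a*, *Btg2*, *Gadd45a*), genes that favour apoptosis (*Bbc3*, *Pmaip1*, *Trp53inp1*, *Phlda3*) and genes that feed back on p53 itself (*Mdm2*, *Ccng1*). In the testis the question has a particular setting, because leptotene and zygotene spermatocytes make and repair programmed DNA breaks as part of normal meiosis.

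p53 binds a response element made of a pair of decamers. In RefSeq promoter windows of mouse GRCm38.p6, from 250 bases before to 50 bases after each start site, 8 of the 10 genes had an entry, with 11 windows, and *Pmaip1* and *Trp53inp1* had none. The p53 decamer consensus, which reads the same on both strands, was searched for without mismatch. It was found in 5 of the 11 windows, 1 each of *Trp53*, *Cdkn1a*, *Mdm2*, *Ccng1* and *Gadd45a*, against 8.356% of all 32851 windows. A pair of decamers at most 13 bases apart was found in 1 window, that of the upstream *Cdkn1a* start site, against 24 of all windows (0.07306%). The 5 sequences that hold a decamer are shown 5′ to 3′ on the strand of the gene, with the decamer in capitals, since 2 of them belong to the genes with the largest differences in LZ. Bases of annotated exons were left out, except at *Gadd45a*, where the decamer lies in the first exon as GENCODE annotates it and is shown with 10 bases on each side.
Trp53: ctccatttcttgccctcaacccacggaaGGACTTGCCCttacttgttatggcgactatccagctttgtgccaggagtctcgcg
Cdkn1a: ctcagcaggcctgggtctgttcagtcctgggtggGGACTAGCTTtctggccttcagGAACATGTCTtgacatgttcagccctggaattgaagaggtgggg
Mdm2: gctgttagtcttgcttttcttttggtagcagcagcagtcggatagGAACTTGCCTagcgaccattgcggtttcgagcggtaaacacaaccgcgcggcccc
Ccng1: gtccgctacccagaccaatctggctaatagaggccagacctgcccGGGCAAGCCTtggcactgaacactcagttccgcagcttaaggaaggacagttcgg
Gadd45a: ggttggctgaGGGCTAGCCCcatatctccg

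These sequences lie at chr11:69580256-69580338 (plus strand), chr17:29090872-29090971 (plus strand), chr10:117710890-117710989 (minus strand), chr11:40755417-40755516 (minus strand) and chr6:67037428-67037457 (minus strand). The decamer begins 75 bases before the start site of *Trp53*, 186 before that of *Mdm2*, 185 before that of *Ccng1* and 40 before that of *Gadd45a*. At *Cdkn1a* the decamers begin 73 and 51 bases before the start site and are 12 bases apart. A match is a description of these letters and not evidence of binding, and no match, as for *Btg2*, *Phlda3* and *Bbc3*, says only that the letters are not in this window.

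In GRCm38, *Trp53* lies on chromosome 11 from 69580359 to 69591873 (plus strand) and *Cdkn1a* on chromosome 17 from 29090976 to 29100727 (plus strand). *Mdm2* lies on chromosome 10 from 117688875 to 117710758 (minus strand) and *Ccng1* on chromosome 11 from 40748552 to 40755311 (minus strand). *Gadd45a* lies on chromosome 6 from 67035096 to 67037457 (minus strand) and *Btg2* on chromosome 1 from 134075170 to 134079120 (minus strand). *Pmaip1* lies on chromosome 18 from 66458533 to 66465565 (plus strand). All are protein-coding, and the values are reads over their exons. 337 exon bases of *Gadd45a* overlap the antisense gene *E230016M11Rik*, and Smart-seq2 reads do not mark the strand, so that reads of the pair cannot be told apart there. 273 exon bases of *Cdkn1a* overlap an antisense gene, AC167363.2, that is not a row of the table. *Trp53* has an annotated processed pseudogene, *Trp53-ps*, which is not a row of the table either.

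The libraries held 5812380 to 13820953 recovered reads over genes, with 14493 to 17818 genes detected. The SKO LZ libraries were the shallowest (5812380 to 7609420 reads), against 13666762 and 13820953 in WT LZ. The deposited values are counts calibrated per library to the ERCC spike-in, external RNA of known amount. A median-of-ratios size factor, computed within each comparison, was divided out, and the result is called the rescaled value. Without this division, the median log2 difference of all genes moved by -0.25 in SPG, 0.69 in PreL and -0.12 in LZ between the genotypes. Between stages it moved by 0.07 from WT SPG to WT PreL, 1.73 from WT PreL to WT LZ, 0.98 from SKO SPG to SKO PreL and 0.82 from SKO PreL to SKO LZ. Rescaled values are therefore relative to the other genes of the library. Genes averaging 10 or more reads were tested with limma on log2(rescaled value + 10), a scale that understates the change of low genes. A gene was called at a Benjamini-Hochberg adjusted p under 0.05 over all genes tested and an absolute log2 fold change above 1. In bulk samples, fewer cells of a type and less RNA per cell cannot be told apart.

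Per length, the 10 genes spanned a wide range of levels. In RPKM, which sets reads against exon length and library total, *Ccng1*, which encodes cyclin G1, was the highest of the 10 in all groups but WT LZ, from 40.3 ± 1.87 in SKO LZ (SD, n = 3) to 61.4 ± 3.76 in SKO SPG (SD, n = 3). In WT LZ it stood at 23.5 ± 6.93 (SD, n = 2), below *Mdm2*, the ubiquitin ligase of p53, at 32.9 ± 6.56 (SD, n = 2), a difference within the spread of those libraries. *Bbc3*, which encodes the BH3-only protein PUMA, was the lowest of the 10 in every group, from 0.24 ± 0.14 in WT LZ to 0.93 ± 0.28 in SKO SPG. *Cdkn1a*, which encodes the cyclin-dependent kinase inhibitor p21, was also low on this scale, from 1.27 ± 0.25 in SKO LZ to 4.01 ± 0.25 in WT PreL. *Trp53* itself ranged from 4.02 ± 0.73 in WT PreL to 6.04 ± 0.81 in SKO SPG. *Bbc3* had 3 to 32 reads per library, too few to pass the filter on low values between the genotypes in PreL and LZ and from SKO PreL to SKO LZ.

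**Figure D1:**
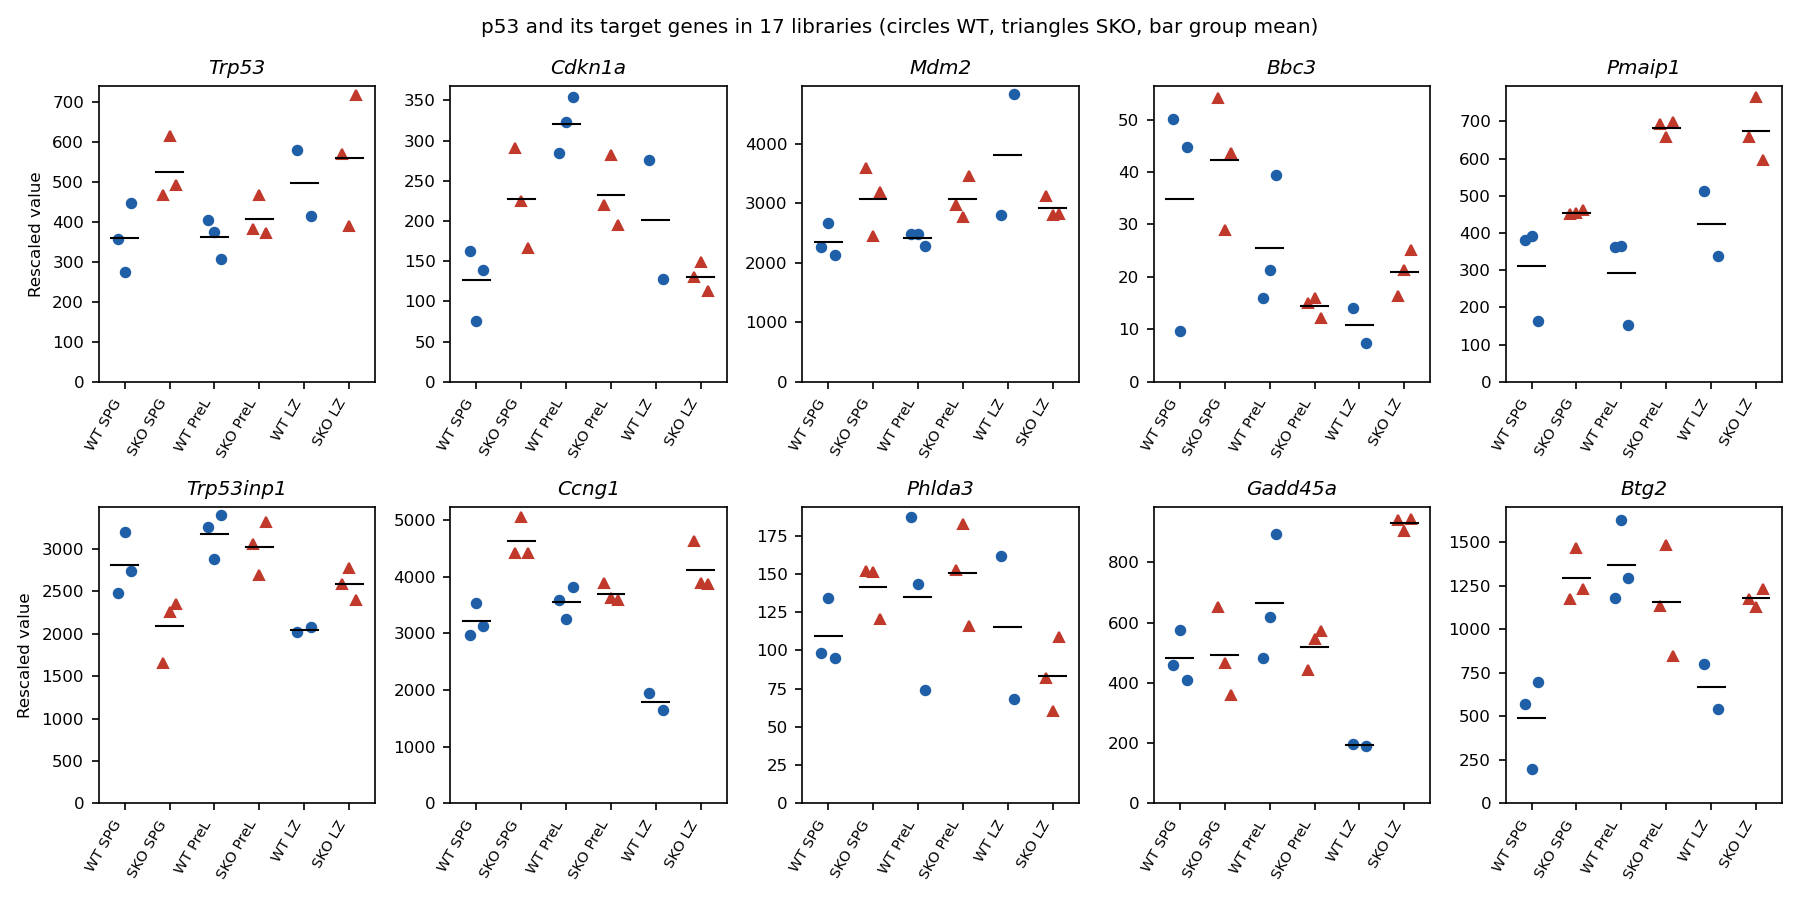
Rescaled value (over all 17 libraries, linear axis from 0) of each of the 10 genes in each library, by stage and genotype. *Gadd45a* and *Ccng1* are lowest in the 2 WT LZ libraries, and the lowest value of *Btg2*, 194, is in WT SPG.

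In SPG, 1 of the 10 genes was called higher in SKO, *Btg2*, against 3.95% of the 12846 genes tested, and none was called lower, against 2.06%. 4 of the 10 had an unadjusted p under 0.05. 5 of the 10 lay above WT without overlap of the libraries (*Trp53*, *Cdkn1a*, *Pmaip1*, *Ccng1*, *Btg2*) and 1 below (*Trp53inp1*). The shares of all genes with such a p or without overlap were not counted, here and in the comparisons below. These counts therefore describe the listed genes and do not show that they stand out from other genes. The median log2 fold change of the 10 was 0.43, and that of all genes was 0.00. *Btg2*, an antiproliferative gene that is also induced early after many stimuli, had rescaled values of 347, 117 and 419.8 in WT replicates 1, 2 and 3. In SKO replicates 1, 3 and 4 it had 699.6, 875 and 737. All SKO libraries were above all WT libraries, and WT replicate 2 was the lowest. The means were 294.5 ± 158 in WT and 770.6 ± 92.5 in SKO (SD, n = 3 each), and the log2 fold change was 1.53 (standard error 0.36, adjusted p = 0.0148 from limma). The call depended on single libraries: without WT replicate 2 the log2 fold change was 0.98 (adjusted p = 0.0158), and without SKO replicate 3 or 4 the adjusted p was 0.061 or 0.0558.

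*Ccng1* had 1801, 2121 and 1897 in the WT SPG libraries and 2630.2, 3015 and 2653 in SKO. The groups did not overlap, and the log2 fold change, 0.51 (standard error 0.13, adjusted p = 0.0208), was below the fold threshold. Its interval of 95% was 0.24 to 0.79. *Cdkn1a* had 98.7, 45.4 and 84.4 in WT and 173, 134 and 99.5 in SKO, and its log2 fold change of 0.78 (interval -0.10 to 1.66, adjusted p = 0.249) did not pass the test. The lowest SKO library of *Cdkn1a* was barely above the highest WT library. *Trp53* had 217, 164 and 270.5 in WT and 279, 367 and 295 in SKO. Its log2 fold change was 0.53 (interval -0.06 to 1.11, adjusted p = 0.244). *Mdm2* had a log2 fold change of 0.36 (interval 0.01 to 0.71, adjusted p = 0.18). The transcript of p53 and that of its inhibitor were thus not called in SPG.

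Among the apoptosis genes in SPG, *Pmaip1*, which encodes the BH3-only protein NOXA, had 232, 235 and 98.5 in WT and 268, 271 and 276 in SKO. Its log2 fold change was 0.60 (interval -0.12 to 1.32, adjusted p = 0.285). *Trp53inp1*, a stress-induced nuclear protein that promotes p53 activity, went the other way, with 1508, 1920.4 and 1659.7 in WT and 983, 1346 and 1414 in SKO. Its groups did not overlap, and the difference was -0.45 on the log2 scale (interval -0.81 to -0.09, adjusted p = 0.0996). *Phlda3*, which encodes a repressor of AKT, and *Bbc3* differed by 0.32 and 0.27 on the log2 scale (adjusted p = 0.668 and 0.812). *Gadd45a*, a damage-inducible growth arrest gene, was at 291 ± 49.6 in WT against 293.9 ± 88 in SKO (log2 fold change -0.01, interval -0.60 to 0.58).

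In PreL, 1 of the 9 genes tested was called higher in SKO, *Pmaip1*, against 5.32% of the 13132 genes tested, and none was called lower, against 5.83%. 2 of the 9 had an unadjusted p under 0.05, *Pmaip1* and *Mdm2*, and they alone lay above WT without overlap. The shares of all genes that did so were not counted. The median log2 fold change of the 9 was 0.07, against 0.04 for all genes. *Pmaip1* had rescaled values of 319, 324 and 136 in WT replicates 1, 2 and 4, and 618, 586 and 619 in SKO replicates 1, 2 and 3. The SKO libraries were close together, and WT replicate 4 stood below the other WT libraries. The means were 259.5 ± 107 in WT and 607.8 ± 18.6 in SKO (SD, n = 3 each), and the log2 fold change was 1.29 (standard error 0.31, adjusted p = 0.0222 from limma). Without WT replicate 4 it was 0.89 (adjusted p = 0.0158), under the fold threshold, and without SKO replicate 1 or 2 the adjusted p was 0.0766 or 0.0599.

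*Mdm2* had 2186, 2193 and 2029 in WT PreL and 2649.8, 2461 and 3057 in SKO PreL. Its log2 fold change was 0.34 (interval 0.06 to 0.63, adjusted p = 0.091), so that the separation of the libraries did not pass the test. *Cdkn1a* was at 284 ± 31.7 in WT PreL against 207 ± 40.3 in SKO PreL (log2 fold change -0.45, interval -0.99 to 0.10, adjusted p = 0.231). *Btg2*, called in SPG, had 1038, 1441 and 1145 in WT and 1007, 1321 and 751 in SKO PreL. Its groups overlapped, with a log2 fold change of -0.26 (interval -0.75 to 0.23, adjusted p = 0.442). The other tested genes, *Trp53*, *Trp53inp1*, *Ccng1*, *Phlda3* and *Gadd45a*, had log2 fold changes from -0.30 to 0.22 and adjusted p from 0.413 to 0.75. With the ERCC-calibrated values not rescaled, *Mdm2* was called as well, with a log2 fold change of 1.06 (adjusted p = 0.000631), and *Trp53inp1* changed sign, from -0.07 to 0.65 (adjusted p = 0.00614). On that scale the median of all genes was 0.73, and 26.3% of them were called higher.

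In LZ, 2 of the 9 genes tested were called higher in SKO, *Gadd45a* and *Ccng1*, against 13.4% of the 13724 genes tested, and none was called lower, against 25.8%. 4 of the 9 had an unadjusted p under 0.05. 6 of the 10 lay above WT without overlap (*Bbc3*, *Pmaip1*, *Trp53inp1*, *Ccng1*, *Gadd45a*, *Btg2*) and none below. WT had 2 libraries here, and the share of all genes without overlap was not counted, so this count cannot be set against other genes. The median log2 fold change of the 9 was 0.32, and that of all genes was -0.13. *Gadd45a* had a rescaled value of 406 in both WT libraries, and 1977, 1858 and 1974 in SKO replicates 1, 2 and 3. In reads these were 139 and 103 in WT and 173, 255 and 226 in SKO, although the SKO libraries were shallower. The means were 406.2 ± 0.182 in WT (SD, n = 2) and 1936 ± 67.8 in SKO (SD, n = 3), and the log2 fold change was 2.22 (standard error 0.21, adjusted p = 0.000149 from limma). The antisense gene *E230016M11Rik* had 9 and 2 reads in WT LZ and 24, 25 and 27 in SKO LZ, and its part in the *Gadd45a* value was not tested. It had 0 to 45 reads over all libraries.

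*Ccng1* had 4032 and 3527 in WT LZ and 9714, 7993 and 8105 in SKO LZ. Each SKO library was far above both WT libraries. The means were 3779 ± 357 and 8604 ± 963, and the log2 fold change was 1.18 (standard error 0.16, adjusted p = 0.000864 from limma). Over all alternatives, the log2 fold change of *Gadd45a* stayed between 2.1 and 2.3 and that of *Ccng1* between 1.06 and 1.25, with each library left out included, and both were called in every one. *Btg2* was at 1662 and 1152 in WT LZ and 2457, 2317 and 2576 in SKO LZ, without overlap. Its log2 fold change of 0.82 (interval 0.32 to 1.32, adjusted p = 0.0149) was below the fold threshold, and it rested on single libraries. Without WT replicate 2 the log2 fold change was 1.05 (adjusted p = 0.00795), without WT replicate 3 it was 0.53 (adjusted p = 0.0316), and without SKO replicate 1 or 3 the adjusted p was 0.0526 or 0.0662.

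*Pmaip1* had 1063 and 722 in WT LZ and 1383, 1574 and 1249 in SKO LZ, a log2 fold change of 0.67 (interval 0.07 to 1.26, adjusted p = 0.0609). It was above WT in SKO in all stages without overlap, but it passed the test in PreL only. *Cdkn1a* had 573 and 272 in WT LZ and 274, 306 and 236 in SKO LZ, which overlapped, with a log2 fold change of -0.53 (interval -1.51 to 0.44, adjusted p = 0.321). These *Cdkn1a* values rested on 24 to 42 reads in the SKO libraries. *Mdm2* had 5811 and 10301 in WT LZ and 6537, 5764 and 5904 in SKO LZ, and the WT libraries lay on both sides of SKO replicate 1. Its log2 fold change was -0.35 (interval -0.92 to 0.22, adjusted p = 0.262), and it was -0.79 (adjusted p = 0.0129) without WT replicate 2 and 0.04 (adjusted p = 0.776) without WT replicate 3. *Trp53* itself had 1207 and 884 in WT LZ and 1200.0, 802 and 1502 in SKO LZ (log2 fold change 0.13, interval -0.61 to 0.87, adjusted p = 0.755). *Trp53inp1* was at 0.32 (adjusted p = 0.115) and *Phlda3* at -0.37 (adjusted p = 0.555) on the log2 scale. *Bbc3*, with 3 to 10 reads in the LZ libraries, was not tested.

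**Figure D2:**
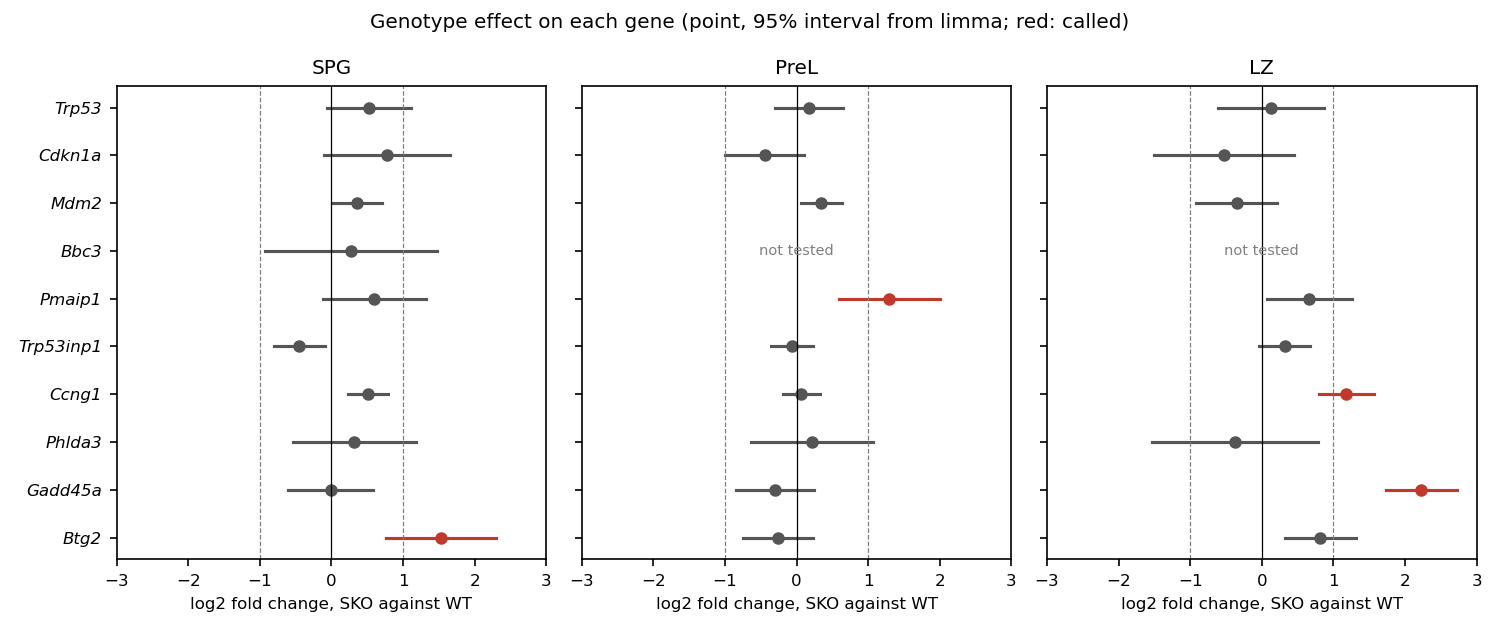
Log2 fold change of SKO against WT for the 10 genes in SPG, PreL and LZ (points, with 95% intervals from limma, red where called). The called points are *Btg2* in SPG (1.53), *Pmaip1* in PreL (1.29) and *Gadd45a* (2.22) and *Ccng1* (1.18) in LZ, and the intervals of *Trp53* include 0 in all stages.

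The genes called differed from stage to stage, so the change of the genotype effect was tested itself, as an interaction term over all 17 libraries. From SPG to PreL none of the 10 passed, against 0.251% of 13530 genes in the positive and 0.111% in the negative direction. 3 of the 10 had an unadjusted p under 0.05, and by DESeq2 *Btg2* passed. The effect on *Btg2* differed by -1.83 (standard error 0.46, adjusted p = 0.0834), that on *Cdkn1a* by -1.28 (adjusted p = 0.235) and that on *Ccng1* by -0.47 (adjusted p = 0.216). From PreL to LZ, 2 of the 10 passed in the positive direction, against 15.1% of the genes, and none in the negative, against 23.1%. The effect on *Gadd45a* was larger in LZ by 2.52 (standard error 0.37, adjusted p = 0.0000319) and that on *Ccng1* by 1.14 (standard error 0.18, adjusted p = 0.0000918). On the ERCC-calibrated scale, without rescaling, the difference was 1.69 for *Gadd45a* (adjusted p = 0.00176) and 0.27 for *Ccng1* (adjusted p = 0.378), so that the result of *Ccng1* depends on the scaling. *Mdm2* differed by -0.67 (adjusted p = 0.0502), and it was at -1.07 (adjusted p = 0.00207) without WT LZ replicate 2, at -0.30 (adjusted p = 0.38) without WT LZ replicate 3 and at -0.74 (adjusted p = 0.0471) without SKO PreL replicate 2. For *Pmaip1* the difference was 0.66 from SPG to PreL (adjusted p = 0.522) and -0.62 from PreL to LZ (adjusted p = 0.34), so its effect in PreL was not shown to differ from those in the other stages. Wherever none of the 10 was called in a direction, edgeR and DESeq2 called none either, except *Btg2* and *Mdm2* in the negative interactions by DESeq2.

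The same libraries give the course of the genes through the stages in each genotype. These comparisons share libraries with those of the genotypes. From WT SPG to WT PreL, 2 of the 10 genes rose, *Btg2* and *Cdkn1a*, against 2.54% of the 12657 genes tested, and none fell, against 1.21%. *Btg2* rose from 331.8 ± 178 to 908.5 ± 152 (log2 fold change 1.59, standard error 0.38, adjusted p = 0.0317) and *Cdkn1a* from 85.9 ± 30.5 to 213 ± 23.8 (log2 fold change 1.27, standard error 0.34, adjusted p = 0.047). Both calls were lost under edgeR (adjusted p = 0.0598 and 0.0645). The adjusted p of *Cdkn1a* was 0.0566 to 0.125 without each library in turn, and that of *Btg2* was 0.0525, 0.106 and 0.0614 without WT SPG replicate 3 and WT PreL replicates 2 and 4. From SKO SPG to SKO PreL none of the 10 was called, against 1.63% higher and 0.955% lower of the 12882 genes tested. 3 of the 10 had an unadjusted p under 0.05 there. *Btg2* was at 1011 ± 118 in SKO SPG and 914.6 ± 249 in SKO PreL (adjusted p = 0.664), and *Cdkn1a* at 177 ± 47.5 and 184 ± 34.8 (adjusted p = 0.922).

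From WT PreL to WT LZ, 3 of the 10 genes fell relative to the other genes, *Gadd45a*, *Ccng1* and *Btg2*, against 7.8% of the 13759 genes tested, and none rose, against 18.8%. *Gadd45a* went from 759 ± 250.1 to 199 ± 6.42 (log2 fold change -1.83, standard error 0.35, adjusted p = 0.00558). *Ccng1* went from 4048 ± 356 to 1854 ± 235 (log2 fold change -1.12, adjusted p = 0.00406) and *Btg2* from 1554 ± 265 to 692 ± 199 (log2 fold change -1.17, adjusted p = 0.0118). Without WT LZ replicate 3, *Gadd45a* alone was called, with *Ccng1* at -0.996 (adjusted p = 0.0339) and *Btg2* at -0.88 (adjusted p = 0.0713). This fall is relative: with the ERCC-calibrated values not rescaled, *Gadd45a* was at -0.05 (adjusted p = 0.91), and *Ccng1* and *Btg2* were at 0.70 and 0.65, in the other direction (adjusted p = 0.0116 and 0.0723). The median of all genes was 1.86 on that scale. The calibrated counts of *Gadd45a* were 301, 469.6 and 625.5 in WT PreL and 452 and 412 in WT LZ, and they were 489, 763 and 562 in SKO PreL and 1799, 1894 and 1959 in SKO LZ.

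From SKO PreL to SKO LZ none of the 10 was called, against 10.6% higher and 6.93% lower of the 12477 genes tested, and 3 of the 9 tested had an unadjusted p under 0.05. *Gadd45a* went the other way from WT, from 793 ± 121 to 1382 ± 40.5, and its log2 fold change of 0.80 (SE 0.16, adjusted p = 0.00433) was below the fold threshold. *Cdkn1a* went from 353 ± 56.4 to 194 ± 26, a log2 fold change of -0.82 (adjusted p = 0.0275, and 0.0164 to 0.088 with each library left out). On the ERCC-calibrated scale *Gadd45a* was at 1.65 (adjusted p = 8.84e-05), past the fold threshold, and *Cdkn1a* at -0.0062 (adjusted p = 0.989). The median of all genes was 0.81 on that scale, and 35.3% were called higher. *Ccng1* was at 5632 ± 255 and 6140 ± 659 (adjusted p = 0.452) and *Btg2* at 1745 ± 424 and 1749 ± 85.2 (adjusted p = 0.91). On the scale set over all 17 libraries, *Gadd45a* was at 195.5 and 190.6 in WT LZ, at 903 to 944.5 in SKO LZ and at 358 to 894 in the other libraries. *Ccng1* was at 1941 and 1655 in WT LZ and at 2967 to 5056 in the others.

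**Figure D3:**
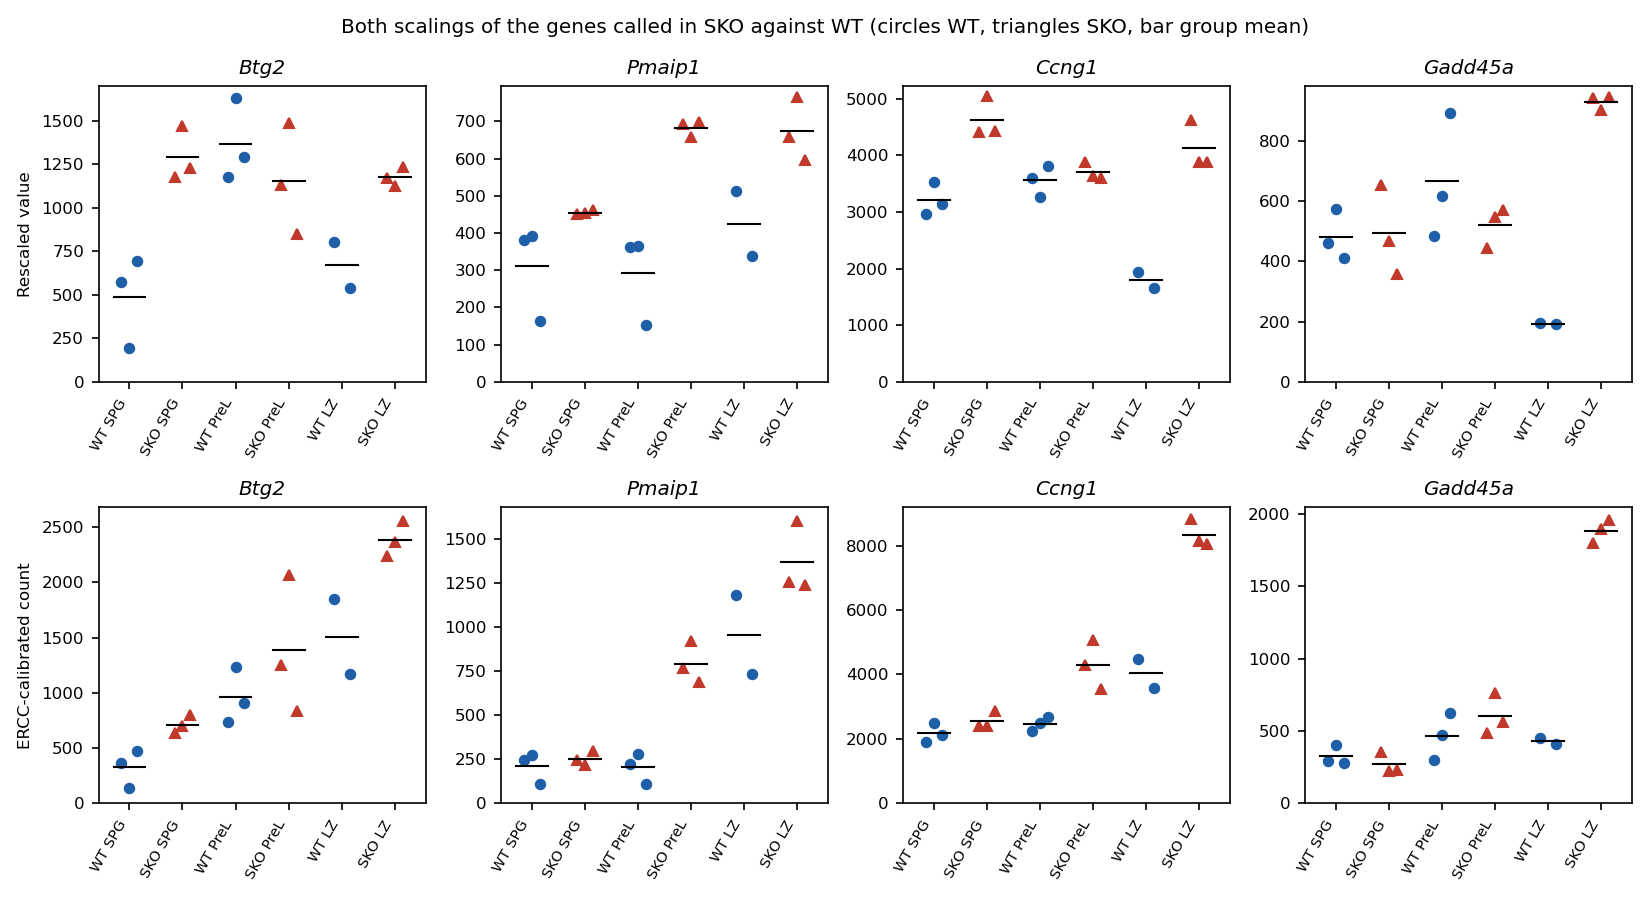
*Btg2*, *Pmaip1*, *Ccng1* and *Gadd45a* by group (circles WT, triangles SKO, 1 point per library, bars group means), as rescaled values in the upper row and as ERCC-calibrated counts in the lower row, both linear from 0. SKO LZ lies above WT LZ in each of these genes on both scales, and WT LZ lies below WT PreL in *Ccng1* only as rescaled values.

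Other genes of the pathway were listed in 3 groups. Of 28 further p53 targets, 0 of the 25 tested were called by limma in SPG (4 at an unadjusted p under 0.05). 2 of 26 were called higher in PreL and none lower, against 5.32% and 5.83% of all genes tested, and 3 of 24 were called higher and 2 lower in LZ, against 13.4% and 25.8%. The medians were -0.05, 0.15 and 0.18, against 0.00, 0.04 and -0.13 for all genes. In PreL, *Rrm2b*, a ribonucleotide reductase subunit, rose from 390.2 ± 62.3 in WT to 866.6 ± 14 in SKO (log2 fold change 1.14, standard error 0.18, adjusted p = 0.00329). *Plk2*, a polo-like kinase, rose from 197 ± 20 to 431 ± 16.4 (log2 fold change 1.10, adjusted p = 0.0079). In LZ, *Tnfrsf10b*, the mouse TRAIL death receptor, rose from 1095 ± 169 to 11244 ± 2344 (log2 fold change 3.34, standard error 0.22, adjusted p = 5.18e-05). *Zmat3* rose from 538 ± 315 (SD, n = 2) to 1423 ± 318 (SD, n = 3), by 1.49 (adjusted p = 0.0163), with a wide spread in WT. *Ddb2*, a nucleotide excision repair gene, fell from 1087 ± 215 to 290.7 ± 109 (log2 fold change -1.93, adjusted p = 0.00604). The other 19 of the 24 targets tested in LZ were not called. Single genes of these 3 groups were not followed under the alternatives or with libraries left out.

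Of 19 regulators and relatives of p53, 1 of 17 tested was called higher in SPG, *Kat5*, an acetyltransferase, against 3.95% of all genes. *Kat5* was at 142 ± 58.8 in WT and 306 ± 14.9 in SKO (log2 fold change 1.14, adjusted p = 0.0453). In PreL none of 17 was called by limma (2 at an unadjusted p under 0.05). In LZ, 4 of 18 were called higher and 1 lower, against the same 13.4% and 25.8% of all genes. *Chek2*, a checkpoint kinase that phosphorylates p53, rose from 847 ± 74.1 to 5751 ± 1288 (log2 fold change 2.73, standard error 0.22, adjusted p = 8.03e-05), and *Ep300*, a p53 coactivator, rose by 2.05 (adjusted p = 9.73e-05). *Kat5* fell there (log2 fold change -1.72, adjusted p = 0.00408). Of 11 cell cycle genes that the DREAM complex represses downstream of p21, 2 were called lower in SPG, against 2.06% of all genes. These were *Plk1* and *Cdk1* (log2 fold changes -1.51 and -1.21, adjusted p = 0.00243 and 0.0028). In PreL 1 was called higher, against 5.32%, *Ccnb1*, which encodes cyclin B1 (1.91, adjusted p = 9.95e-05). In LZ *Cenpf* was called higher (2.28, adjusted p = 0.000176) and *Ccnb2* lower (-1.44, adjusted p = 0.00104), against 13.4% and 25.8%. The medians of the 11 were -0.43 in SPG, 0.13 in PreL and 0.27 in LZ, against 0.00, 0.04 and -0.13 for all genes. Log2 fold changes were above 0 in 1, 7 and 9 of the 11, and unadjusted p under 0.05 in 6, 5 and 3.

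The stage labels were set against markers. The summed rescaled level of 8 early meiotic markers (*Sycp3*, *Dmc1* and others) was 57096 to 60528 in WT SPG, 86240.5 to 97415 in WT PreL and 89669 to 139261 in WT LZ, and it was 82950.2 to 87929, 116901 to 192167 and 105039 to 146599 in SKO. In each group, every one of these markers was detected in some library. The spermatogonial gene *Nanos2* was at 0 in WT SPG and WT PreL. The sum of 8 markers of undifferentiated spermatogonia was 1391 to 1731 in WT SPG, 1153 to 1533 in WT PreL and 1975 and 3303 in WT LZ. This list thus overlapped between WT SPG and WT PreL and was highest in WT LZ, so that it did not fall steadily with stage. The sum of 5 markers of differentiating spermatogonia was 14696 to 15896 in WT SPG and 19484 to 22223 in SKO SPG, and 21564 to 24871 in WT PreL and 14034 to 17834 in SKO PreL. This sum was thus higher in SKO in SPG and lower in PreL, but the 5 markers did not move together. In SPG 1 was called higher and 0 lower, with log2 fold changes from -0.67 to 1.40. In PreL 1 was called higher and 1 lower, from -1.44 to 1.08. The part of these markers' cells in the calls of *Btg2* and *Pmaip1* was not tested.

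Markers of other cells and states moved with the genotype. 10 immediate early genes (*Fos*, *Egr1*, *Jun* and others), which rise quickly after stimulation or handling of cells, were all called higher in SKO SPG, 4 of 10 in SKO PreL and 8 of 10 in SKO LZ, and none was called lower. Their summed rescaled level was 1212 to 1388 in WT SPG and 6095 to 12973 in SKO SPG. It was 1477 to 1969 in WT PreL and 2346 to 7199 in SKO PreL, and 1486 to 3045 in WT LZ and 8028 to 9370 in SKO LZ. Beside this sum, *Trp53*, *Cdkn1a*, *Pmaip1*, *Ccng1* and *Btg2* lay above WT without overlap in SPG, and *Trp53inp1* below. In LZ *Bbc3*, *Pmaip1*, *Trp53inp1*, *Ccng1*, *Gadd45a* and *Btg2* lay above, and none below. *Gadd45a* differed by -0.01 on the log2 scale in SPG. In PreL, where the sum was also higher in SKO, *Pmaip1* and *Mdm2* lay above without overlap, at 1.29 and 0.34. *Btg2*, *Gadd45a* and *Ccng1* differed there by -0.26, -0.30 and 0.07. The shares of all genes without overlap were not counted. The part of this sum in the values of these genes was not tested.

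Late spermatocyte markers were all (8 of 8) called lower in SKO LZ. Their sum was 61932 and 149137 in WT LZ and 1986 to 2070 in SKO LZ. The 8 spermatid markers were also all called lower in SKO LZ, with *Acrv1* and *Odf1* at 0 in all SKO LZ libraries. The genotypes differed in these lists in the earlier stages too: 3 late spermatocyte and 7 spermatid markers were called lower in SKO SPG, and 7 and 6 in SKO PreL. The spermatid sum was 2302 to 6117 in WT SPG and 97.8 to 182 in SKO SPG, and 13086 to 21393 in WT PreL and 197 to 289.5 in SKO PreL, beside the calls of *Btg2* and *Pmaip1*, and its part in them was not tested. The WT LZ libraries thus held far more RNA of these markers than the SKO LZ libraries, and the part of this in the *Gadd45a* and *Ccng1* differences was not tested. In the WT LZ library with the lower sum, *Gadd45a* was at 195.5, *Ccng1* at 1941 and *Btg2* at 800.3, and in the other they were at 190.6, 1655 and 540.

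Leydig cell markers were higher in SKO. 5, 6 and 4 of the 6 Leydig cell markers were called higher in SKO SPG, PreL and LZ. Their sum was 126 to 335 in WT SPG and 1257 to 4790 in SKO SPG, 133 to 393 in WT PreL and 912 to 8988 in SKO PreL, and 505 to 1101 in WT LZ and 2467 to 6566 in SKO LZ. 1, 3 and 1 of the 7 Sertoli cell markers were called higher, and their sum in PreL was 1780 to 1803 in WT and 1607 to 19970 in SKO, with *Amh* at 0 in WT PreL and in SKO LZ. In LZ the Sertoli sums overlapped, at 6911 and 25114 in WT and 15242 to 18711 in SKO, and 6 of the 6 Sertoli markers tested rose from WT PreL to WT LZ, beside the falls of *Gadd45a*, *Ccng1* and *Btg2*. Of the 6 macrophage markers, 4, 2 and 3 were called higher in SKO SPG, PreL and LZ, and of the 5 peritubular myoid markers 2 in SPG and none later by limma. In SKO PreL replicate 3 the sums were the lowest of that group, 912 for Leydig and 1607 for Sertoli cells, against 5597 and 16904 or more in the other replicates. *Pmaip1* was at 619 in that library and at 618 and 586 in the others. This contrast rests on 1 library. The part of these somatic cells in the values of *Pmaip1*, *Gadd45a*, *Ccng1* and *Btg2* was not tested.

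**Figure D4:**
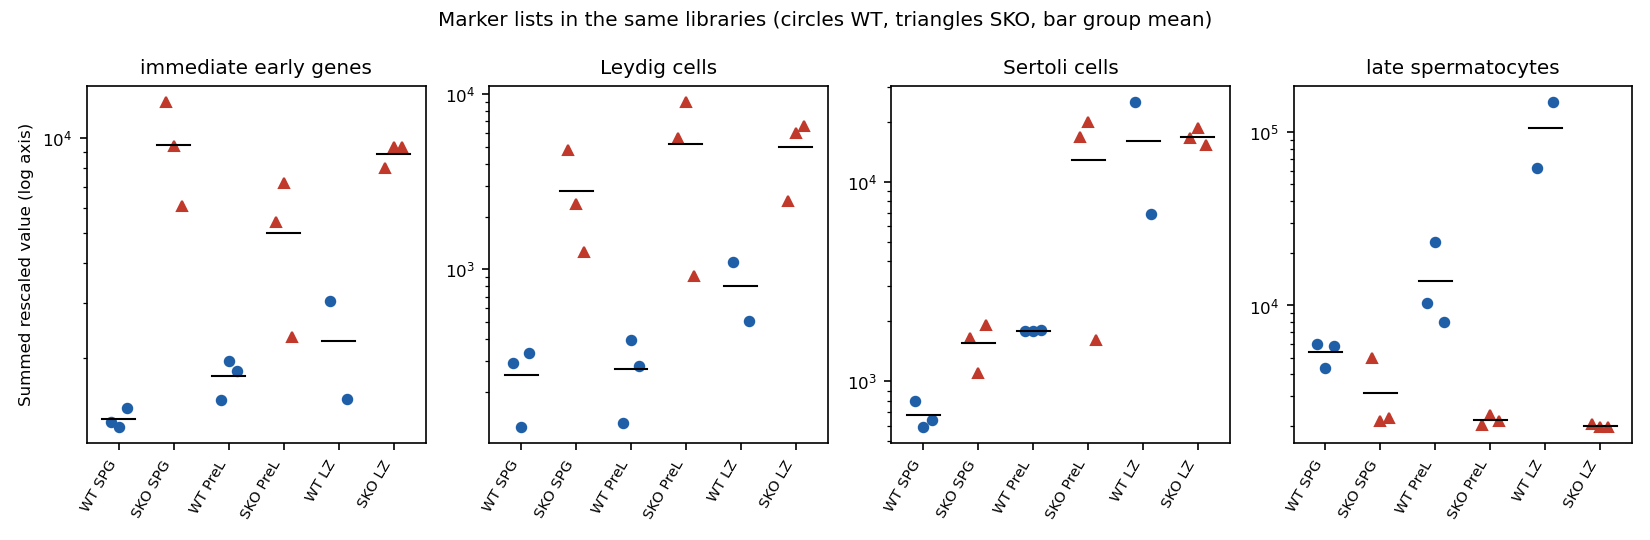
Summed rescaled values (log axis) of marker lists in each of the 17 libraries, by stage and genotype. Immediate early genes and Leydig cell markers are higher in SKO in all stages, and late spermatocyte markers are at 61932 and 149137 in WT LZ and at 2070 or less in SKO LZ.

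Among the 10 genes, Pearson's r of the log2 rescaled values over the 17 libraries ran from -0.59 (*Trp53* with *Trp53inp1*) to 0.73 (*Ccng1* with *Gadd45a*), and the pair *Cdkn1a* and *Btg2* had 0.67. These values share libraries and group differences and are a description. By the same measure over 8666 genes averaging 100 or more reads, the genes most like *Trp53* were *Txnrd1* (0.77), *Zbtb43* (0.73) and *Bsdc1* (0.71). Those most like *Cdkn1a* were *Cars2* (0.76), *Igsf8* (0.71) and *Nsd1* (0.71), and those most like *Mdm2* were *Dars* (0.86), *Tbc1d5* (0.85) and *Srek1* (0.84). None of the other 9 genes was among the 3 genes most like *Trp53*, *Cdkn1a* or *Mdm2*. *Bbc3* and *Phlda3*, which averaged 12.6 and 61.4 reads, were below the limit of 100 reads and could not be among them.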

How the data were processed

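RNA of 17 sorted libraries was measured by Smart-seq2, with the ERCC spike-in added to the lysate. The authors mapped trimmed reads to mm10, took gene counts of unique alignments from HTSeq 0.11.2, and multiplied each library's counts by 1 factor set from the spike-in and the cell input. The submitters' processing notes also name TopHat2 2.1.1, Cufflinks 2.2.1 and DESeq2, and the builds mm9 and mm10. The deposited signal values, ERCC-calibrated counts, are whole multiples of the value of 1 read: 100% gave whole reads within 0.05 reads, and these recovered reads served edgeR and DESeq2. In 3 libraries the deposited values are themselves whole numbers, as their factors are 1, 2 and 4. No further per-sample columns were held.

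Median-of-ratios size factors of each comparison's libraries were divided out. Genes averaging 10 or more recovered reads entered limma 3.58.1 (R 4.3.3, mean-variance trend) as log2(rescaled value + 10), a log scale being used since the values are calibrated. Genotypes were compared within each stage, successive stages within each genotype, and the genotype effects of successive stages by interaction terms over all libraries. Intervals are 95% intervals of limma. No batch is given in the labels. Alternatives were the calibrated values without rescaling, TMM, pseudocounts of 1 and 50, either no filter or a minimum mean of 50 reads, edgeR 4.0.16 and DESeq2 1.42.0, a replicate block, 1 fit of all libraries, no fold threshold, and each library left out in turn. On simulated data with 200 genes changed 4-fold (a log2 fold change of 2), limma recovered 131 in the SPG design, 141 in PreL, 112 in LZ and 94 for the PreL-to-LZ interaction, with 13, 10, 5 and 4 false calls. All simulated libraries shared 1 mean profile, and equal numbers of genes were changed up and down. In the LZ data 13.4% of genes were called higher and 25.8% lower, so these false calls do not cover a change that broad and unequal.

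The 10 genes, the pathway lists and the marker lists were chosen with earlier results of these data known. Named from the pathway lists were, in each stage and direction, up to 2 called genes with the largest change, 100 or more reads on average and no overlap, and for *Trp53*, *Cdkn1a* and *Mdm2* the 3 genes with the highest correlation. Chromosome positions came from GENCODE vM21 (GRCm38) and promoter sequences from RefSeq (GRCm38.p6). Reads were not tagged with molecular identifiers, and PCR copies are not separate molecules, so read numbers give counting error only. Protein sequences and isoforms were not analysed here.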

Additional observations from a re-analysis of the deposited data

Results flagged for a closer look

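The effect of genotype was not the same in PreL as in LZ by a test of the difference itself, the interaction term of limma over all 17 libraries, for 2 of the 10 genes. For *Gadd45a* the effect was 2.52 larger in LZ on the log2 scale (adjusted p = 0.0000319), with all 3 SKO libraries above both WT libraries in LZ and overlapping libraries in PreL. For *Ccng1* it was 1.14 larger in LZ (adjusted p = 0.0000918), with the same separation in LZ and overlap in PreL. Without rescaling of the ERCC-calibrated values the *Ccng1* difference was 0.27 (adjusted p = 0.378), so it depends on the scaling, and that of *Gadd45a* was 1.69 (adjusted p = 0.00176). 15.1% of all genes tested passed in this direction.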

How the results depend on the processing

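The results of single genes were recomputed 1511 times in all: 1442 kept their direction and their side of the threshold, 29 lost and 29 gained a call, and 11 changed sign with an adjusted p under 0.05 before or after. A further 82 sign changes, counted as kept, had an adjusted p of at least 0.05 in both fits. All 11 arose with the ERCC-calibrated values not rescaled, where the median of all genes shifts. They were *Trp53inp1* in PreL (0.65), *Trp53inp1* (1.06), *Ccng1* (0.70), *Phlda3* (1.33) and *Btg2* (0.65) from WT PreL to LZ, *Ccng1* (0.74) and *Btg2* (0.86) from SKO SPG to PreL, *Mdm2* (0.75), *Pmaip1* (0.78) and *Trp53inp1* (0.59) from SKO PreL to LZ, and *Mdm2* (0.98) in the SPG-to-PreL interaction. Of 314 recomputed counts of called genes, 277 kept within 1.5 times the main count. Without rescaling, counts of genes called higher were 2 in PreL, 5 from WT PreL to LZ (0 lower), 6 from SKO SPG to PreL and 2 from SKO PreL to LZ, with 3 positive in the SPG-to-PreL and 1 positive and 2 negative in the PreL-to-LZ interaction. In SPG the count called higher was 0 with no filter and 2 with no fold threshold (6.22% of all genes). Without the fold threshold 1 was also higher and 1 lower from SKO PreL to LZ (17.8% and 19.1%). From WT SPG to PreL the count called higher was 1 with pseudocounts of 1 and 50, 0 with no filter and 0 with edgeR. Negative interactions numbered 1 from SPG to PreL with DESeq2 (1.4% of all genes). From PreL to LZ they numbered 1 with a pseudocount of 50, a mean of at least 50 reads or DESeq2 (25.8%, 25.9% and 20.1%). With each library left out, genes called higher numbered 0 to 1 in SPG, 0 to 1 in PreL and 0 to 1 from WT SPG to PreL, lower 1 to 4 from WT PreL to LZ, and negative PreL-to-LZ interactions 0 to 1, where an arm left with 1 library is assumed to vary like the other groups. The cause of these changes was not tested.

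Replicate numbers are shared between groups, but their deviations from the group means did not go together: r was -0.19 to 0.13 over 14 same-numbered pairs, with 3 over 0.1. With the replicate block, 0 genes were called higher in PreL (*Pmaip1* 0.88, adjusted p = 0.0233) and 1 from WT SPG to PreL. The block could not be fitted from WT PreL to LZ, where no residual degrees of freedom remained. Depth limits *Bbc3* (3 to 32 reads per library) and *Cdkn1a* in SKO LZ (24 to 42 reads).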
